A study of Mus musculus with 12 samples.

Results

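Genes for the protein subunits of the cytosolic ribosome were followed in mesenchyme of the mouse embryonic face. The set held every row of the gene tables whose Ensembl identifier belongs to a protein-coding gene with a symbol of the form Rpl or Rps plus a number (with or without a), Rplp0 to Rplp2, or Rpsa. It came to 75 of 53392 rows, 46 for the large (60S) subunit and 29 for the small (40S) subunit. Members were chosen by symbol and not by measured values. The symbol rule left out core subunits with other names, such as Rps3a1 and Rack1.

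The cytosolic ribosome reads mRNA on its small subunit and joins amino acids on its large subunit, and cells make its proteins in nearly equal numbers. Their mRNAs typically begin with a pyrimidine tract (the TOP tract), through which mTOR and the RNA-binding protein Larp1 adjust their translation in response to growth factors and PI3K. Facial mesenchyme derives largely from the neural crest, a cell population in which defects of ribosome production cause craniofacial malformation. Ribosomal protein genes also have many processed copies in the mouse genome, so that reads from 1 mRNA can match several rows of a gene table.

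Polyadenylated RNA was sequenced from 12 libraries of 129S4 background embryos, in 4 groups of 3. Palatal shelf mesenchyme at E13.5 came from Pdgfra+/+ (wild-type) and PdgfraPI3K/PI3K (PI3K) embryos. Maxillary process mesenchyme at E11.5 came from Srsf3fl/fl;Wnt1-Cre+/+ (control) and Srsf3fl/fl;Wnt1-Cre+/Tg (cKO) embryos, so both of those groups carry the floxed allele. Pdgfra encodes the receptor PDGFRα, the PI3K allele is known as a knock-in whose receptor cannot bind PI3K, and Srsf3 encodes a splicing factor of the SR family. Wnt1-Cre acts in neural crest, so blood, vessel and other cells of a maxillary process would keep Srsf3. The labels call the libraries biological replicates and do not say how many embryos each pooled.

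Library totals ran from 30.5 to 37.4 M estimated counts (M, mega) in the palatal shelf and from 15.9 to 27.9 M in the maxillary process. The gene total of Srsf3 was 470, 407 and 416 TPM (a level per transcript length, scaled to the same total in every library) in the controls and 320, 441 and 407 TPM in the libraries labelled cKO. The groups overlapped, and the total does not show which exons were present. Facial mesenchyme markers (10 genes, including Prrx1 and Twist1) summed to at least 2240 TPM in every library. Ectoderm markers (12 genes, including Krt14 and Epcam) summed to 412 to 970 TPM in the palatal shelf and to 1.83 to 19.4 TPM in the maxillary process, and none was at 0 in all 3 libraries of a group. Fewer cells of a type and less RNA per cell cannot be told apart in these bulk samples.

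The sequences that separate a member from its copies set what each row could measure. Rps18, a protein of the head of the small subunit (mm10 coordinates of the annotation, chr17:33951999-33956001, minus strand), and the row Gm10260 (chr13:97760072-97760632, minus strand, annotated as protein-coding) differ at 4 of 456 aligned coding bases. The stretch shown is coding bases 324 to 383 of Rps18, chosen because it holds 2 of those 4 differences, which are in capitals.
Rps18: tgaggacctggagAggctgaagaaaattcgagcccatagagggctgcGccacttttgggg
Gm10260: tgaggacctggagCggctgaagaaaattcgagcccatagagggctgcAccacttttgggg
Rps27, also of the small subunit (chr3:90212522-90213651, minus strand), and its copy Rps27rt (chr9:114982366-114982739, minus strand) differ at 0 of 252 coding bases. The first 60 coding bases are shown as the example of 2 rows that a coding read cannot separate.
Rps27: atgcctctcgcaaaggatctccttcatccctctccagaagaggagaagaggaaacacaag
Rps27rt: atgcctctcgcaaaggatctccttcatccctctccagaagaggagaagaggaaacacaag
A further pair, Rps12 and Rps12-ps3, differed at 0 of 396 coding bases.

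Because of such pairs each member was measured in 2 ways: as its own row, and as a family, the member plus every row outside its locus that shares at least 20% of its stretches of 31 bases with the member's transcripts. The family was defined after the values of the rows had been seen. In all, 667 relatives were found (647 of a pseudogene type and 9 protein-coding), and 74 of 75 members had at least 1 relative.

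The start of the mRNA was read from the promoter sequences of RefSeq (GRCm38.p6), which matched 55 of the 75 members. Each window gives 15 bases before and 15 bases from the listed start, on the strand of the gene, with the nearest tract in capitals. A tract here is a C followed by at least 4 bases that are each C or T, searched on the strand of the gene only. The base before the C was not restricted. Capitals can therefore mark the later part of a longer pyrimidine run, as in Rpl28, Rps18, Rps27 and Rps24. These members are examples from those named in the results below, and 2 of them have no tract in the window. Rpl10a and Rpl37a, also named below but not shown, had none within 5 bases of the listed start used. Where a gene had several listed starts, a start with a tract exactly at it was preferred for display.
Rpl28: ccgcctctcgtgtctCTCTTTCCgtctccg
Rps18: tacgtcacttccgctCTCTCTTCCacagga
Rps27: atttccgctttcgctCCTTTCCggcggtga
Rps24: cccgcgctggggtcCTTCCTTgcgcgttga
Rpl39: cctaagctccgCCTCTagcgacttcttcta
Rps19: tccgaaatctcgcgagactcgacgcccgac
Rps28: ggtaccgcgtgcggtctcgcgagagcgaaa
The windows lie at chr7:4792950-4792979 (Rpl28, plus), chr17:33955651-33955680 (Rps18, minus), chr3:90213634-90213663 (Rps27, minus), chr14:24490663-24490692 (Rps24, plus), chrX:37085208-37085237 (Rpl39, minus), chr7:24884577-24884606 (Rps19, plus) and chr17:33824548-33824577 (Rps28, minus). A match to this pattern began exactly at a listed start in 13 of 55 members (23.6%), against 3.01% of the 27025 genes in the table. Within 5 bases of a listed start a match was found in 27 members (49.1%), against 21.2% of all genes. A gene was counted if any of its listed starts matched. Of 66 genes for mitochondrial ribosomal proteins, whose mRNAs are not of the TOP class, 0 had a tract at the start and 17 (25.8%) had one within 5 bases. A match describes the letters at an annotated start and not the start used in these cells.

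Member rows spanned a wide range of levels, and most of that range disappeared once the relatives were added. Mean levels over the 12 libraries ran from 43.5 to 4864 TPM between member rows, a 112-fold range, with 7 members under 100 TPM. Families ran from 509 to 4866 TPM, a 9.56-fold range, with 0 under 100 TPM and 1 under 1000 TPM. The median was 1566 TPM for rows and 2087 TPM for families. In 22 members the row held less than 50% of the TPM of its family, in 8 less than 10%, and in 46 more than 90%.

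The rows with the highest means were Rplp1, Rps24 and Rpl41. Rplp1, an acidic protein of the stalk that recruits elongation factors, had 5638, 5565 and 5397 TPM in wild-type palatal shelf and 4419, 3872 and 3444 TPM in control maxillary process. Rps24, a small subunit protein mutated in some patients with Diamond-Blackfan anaemia, had 4576, 4626 and 4738 TPM and 3972, 3939 and 3731 TPM. In both genes every palatal shelf library was above every maxillary process library of those 2 groups. Rpl41, the smallest protein of the ribosome, had 4060, 4005 and 3861 TPM against 4057, 3581 and 3164 TPM, and its groups overlapped.

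The lowest rows were Rpl29, Rpl5 and Rps13, with means of 43.5, 43.6 and 52.6 TPM. Rpl5 carries 5S rRNA into the large subunit and binds Mdm2 when ribosome production is disturbed. Its row held 2.48% of its family, and the row Gm15500 alone had a mean of 1711 TPM. Rps13 held 3.16% of its family beside Rps13-ps1 at 1614 TPM, and Rpl29 held 3.99% beside Gm8210 at 1043 TPM. Low rows of the same kind were Rps12 (1.56% of its family), Rps27 (1.83%), Rpl12 (3.21%), Rpl3 (5.24%) and Rpl27 (8.18%). As families these 8 members lay inside the range of the others. The lowest family was Rpl39, a small protein lining the exit tunnel, at 509 TPM, followed by Rpl29 at 1091 and Rpl22 at 1193 TPM.

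The split between row and copy differed between libraries of 1 group in several members, of which Rps2, Rps18 and Rps27 are described here. Rpl21, for example, held 48.7% to 65.6% of its family in wild-type palatal shelf. For Rps2 and Rps18 the split also differed between the tissues. It did so in other members too, such as Rps20 (32.7% in wild-type palatal shelf, 61.0% in control maxillary process). Rps2, which sits at the mRNA entry of the small subunit, had 1418, 1278 and 20.3 TPM in the controls and 34.02, 38.4 and 1461 TPM in the libraries labelled cKO. In the same order Rps2-ps10 had 2824, 2480 and 3170 TPM, then 4514, 5104 and 2867 TPM. Rps2 was thus nearly empty in control 3 and in cKO 1 and 2, the libraries in which Rps2-ps10 was highest. The family had 4301, 3826 and 3213 TPM in the controls and 4582, 5187 and 4403 TPM in cKO, with no nearly empty library. The Rps2 row held 63.2% of its family in wild-type and 63.4% in PI3K palatal shelf. In the maxillary process it held 24.0% in control and 10.8% in cKO.

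Rps18 had 1019, 962 and 885 TPM in the controls and 1013, 921 and 1797 TPM in cKO. Its copy Gm10260 had 980, 915 and 845 TPM, then 983, 889 and 0.567 TPM. In cKO 3, as in all 6 palatal shelf libraries, where Gm10260 did not exceed 4.54 TPM, the reads were assigned to Rps18. Rps27 ran from 12.7 to 141 TPM over the 12 libraries, an 11.2-fold range without order by group, while Rps27rt ran from 1968 to 2256 TPM in the maxillary process and from 3481 to 3950 TPM in the palatal shelf. These 2 rows have the same coding sequence, printed above, and their sum did not show the 11.2-fold range.

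**Figure D1:**
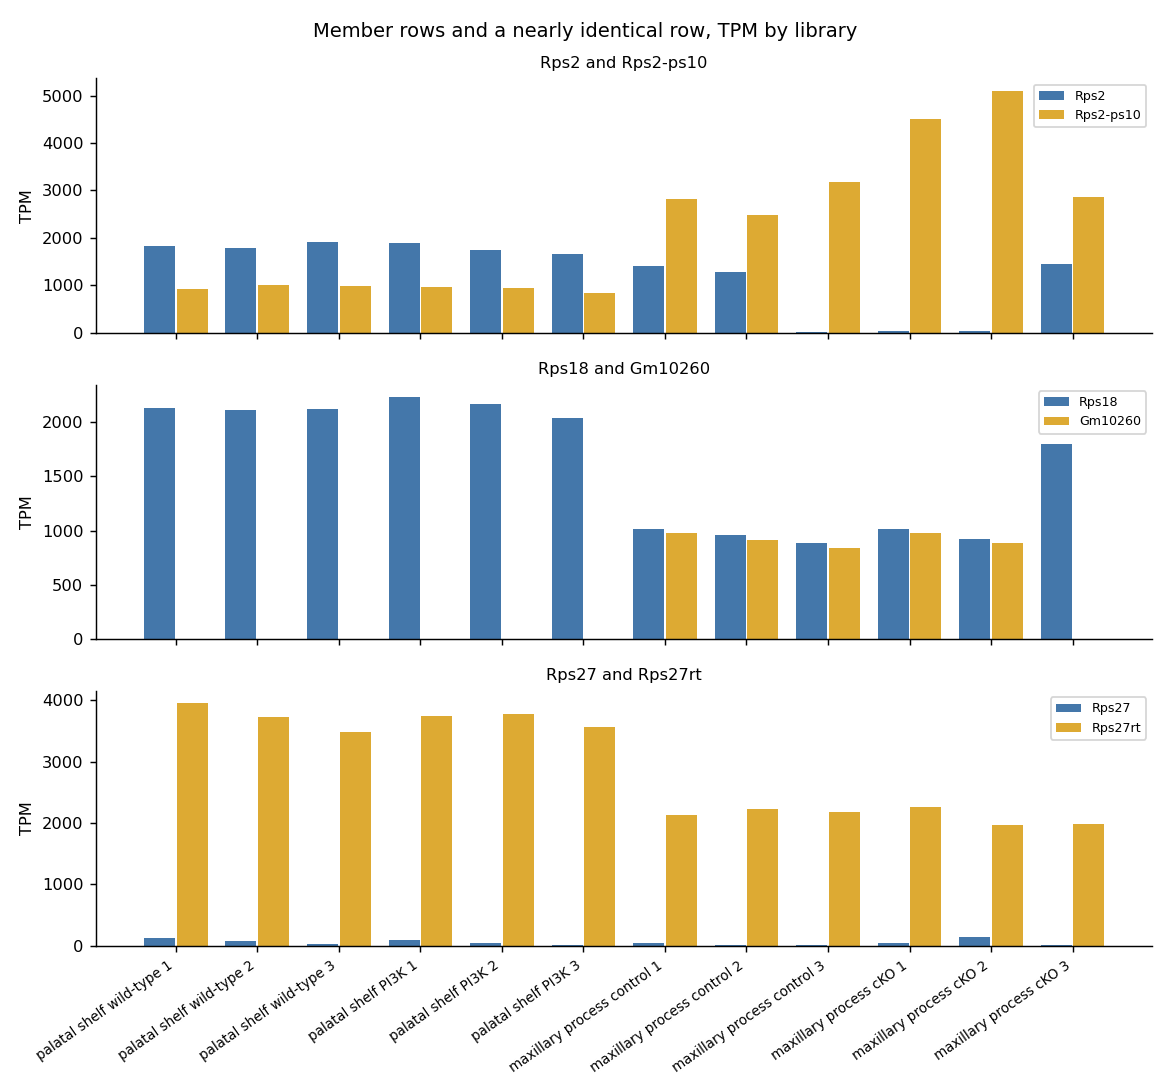
TPM (vertical axis, from 0) of 3 member rows (blue) and a relative of each (yellow) in each of the 12 libraries (horizontal axis). Rps2 is nearly empty in control 3 and in cKO 1 and 2, and Gm10260 is nearly empty in cKO 3 and in all 6 palatal shelf libraries.

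With the relatives added, spread within groups was small. The median SD of log2 TPM within a group was 0.08 for rows and 0.07 for families, and the largest was 2.33 for rows (Rps2) and 0.17 for families. Much of what remained was a shift of the whole set by library. After the median member of each library was subtracted, the median SD fell to 0.05 for rows and 0.04 for families.

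Whole libraries stood apart in this way. In PI3K 3, 75 of 75 families lay below the mean of their group, by a median of 0.07 on the log2 TPM scale. Control 3 had 73 of 75 families below its group mean, by a median of 0.10, and control 1 had 73 above. In cKO 3, 70 of 75 were below. The set therefore moved together within groups of the same genotype, and each comparison below was also made without each library.

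**Figure D2:**
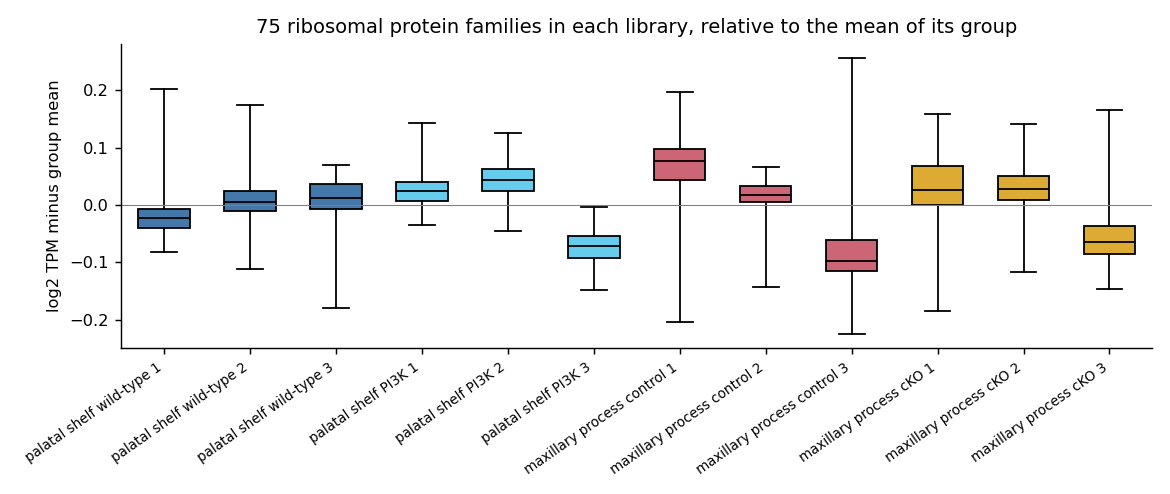
Log2 TPM of the 75 families in each library minus the mean of its group (vertical axis). Boxes show the quartiles and median and whiskers the full range, and colours mark the 4 groups. PI3K 3, control 3 and cKO 3 lie low as a block and control 1 lies high.

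Member rows made up 13.1% ± 0.117 (SD, n = 3) of all TPM in wild-type palatal shelf and 13.3% ± 0.591 in PI3K palatal shelf. They made up 11.1% ± 0.717 in control and 11.6% ± 0.238 in cKO maxillary process. With relatives the shares were 17.81% ± 0.142, 17.96% ± 0.794, 15.63% ± 0.894 and 16.46% ± 0.538. The genotype groups overlapped in both tissues, and all 6 palatal shelf libraries lay above all 6 maxillary process libraries with and without relatives. As shares of estimated counts the rows were apart in the same way (3.72% to 4.10% against 2.99% to 3.61%), whereas with relatives PI3K 3 (4.63%) lay below control 1 (4.68%) and below cKO 1 and 2. Mitochondrially encoded transcripts, which share the same total, were 3.51% to 4.85% of TPM in the palatal shelf and 5.38% to 6.45% in the maxillary process, and red blood cell markers (10 genes, including Hba-a1) summed to 4670 to 10600 and to 13800 to 40500 TPM. Their part in the lower ribosomal share of the maxillary process was not tested.

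**Figure D3:**
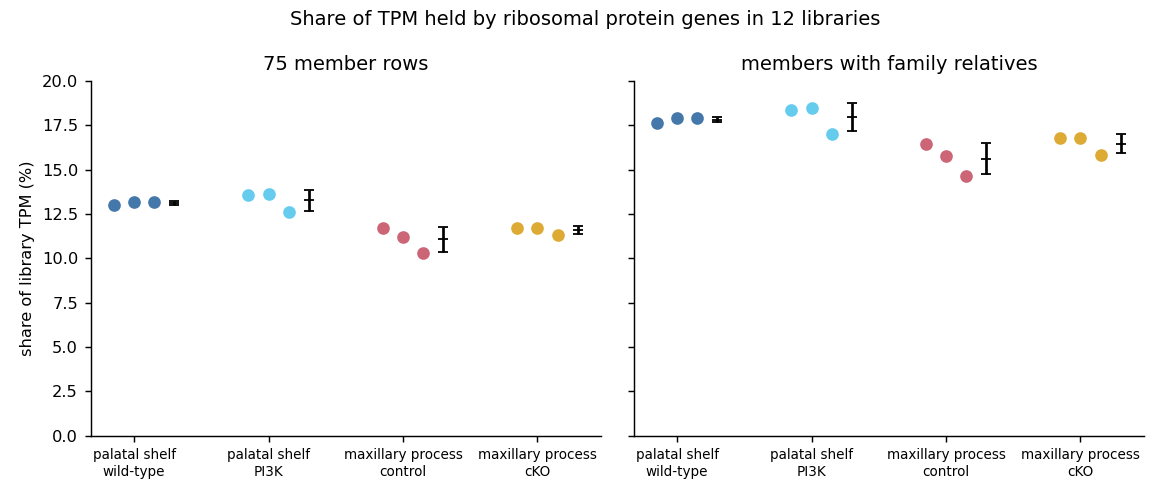
Share of all TPM in a library (vertical axis, percent, from 0) held by the 75 member rows (left) and by the members with their relatives (right), with 3 libraries a group as points and the mean ± SD as bars. Palatal shelf libraries lie from 12.6% to 13.6% and maxillary process libraries from 10.3% to 11.7% for the rows.

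The first comparison asked whether loss of PI3K binding by PDGFRα altered these mRNAs in the palatal shelf. All 75 members were tested and 0 passed a false discovery rate (FDR) of 0.05 in edgeR's quasi-likelihood test. Of all 16525 genes tested, 0 passed (0%). At an unadjusted p of 0.05, 0 members passed, and DESeq2 called 0 members. The median member log2 fold change was 0.02, against a median of -0.01 over all genes, and the SD of the library medians of members was 0.07. Of the members, 52 of 75 lay above 0, against 48% of all genes. In 0 members were the groups apart (no overlap between 3 and 3 libraries in CPM, the normalised counts of the fit), against 3.12% of genes higher and 3.11% lower in PI3K.

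By role, the stalk protein Rplp0, the anchor of the stalk, had a log2 fold change of 0.03 (SE 0.09, 95% interval -0.17 to 0.24). Rps6, the substrate of the S6 kinases that act below PI3K and mTOR, had 1528, 1572 and 1754 TPM in wild-type and 1733, 1686 and 1585 TPM in PI3K libraries. Those groups overlapped, with a log2 fold change of 0.04 (SE 0.08, interval -0.16 to 0.24). Rpl38, whose loss alters the axial skeleton of mice, gave -0.05 (interval -0.25 to 0.16). Rps19, the gene most often mutated in Diamond-Blackfan anaemia, gave 0.04 (interval -0.15 to 0.23). With 3 libraries a group, the data do not exclude differences inside these intervals.

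The lowest values in this comparison were in rows that hold a small part of their family. They were Rps27 at -0.44 (SE 0.64), Rpl27 at -0.20 (SE 0.16) and Rps12 at -0.19 (SE 0.14), and the same members as families gave -0.03, -0.03 and 0.01. The highest were Rpl3 at 0.09 (SE 0.09), Rps28 at 0.09 (SE 0.11) and Rps20 at 0.07 (SE 0.09). Rps27 turned to 0.16 without wild-type 1, the library in which the row had 133 TPM. As families all 75 lay between -0.10 and 0.08 on the log2 scale, and 0 passed the threshold. The median over rows was -0.02 without PI3K 2 and 0.08 without PI3K 3, the library in which every family was low.

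The second comparison asked whether Srsf3 deletion in neural crest altered these mRNAs in the maxillary process. Again 0 of 75 members passed, against 12 of 14254 genes (0.0842%). At an unadjusted p of 0.05, 1 member passed, and DESeq2 called 0 members. That member was Rpl10a, a large subunit protein near the tRNA exit site, which had 1047, 1005 and 957 TPM in the controls and 1250, 1212 and 1248 TPM in cKO. Its groups did not overlap, the log2 fold change was 0.26 (SE 0.10, 95% interval 0.04 to 0.49) and the adjusted p was 0.37. As a family it gave 0.22, with an adjusted p of 0.456.

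Nearly the whole set leaned one way without passing the test. The log2 fold change was above 0 in 72 of 75 members, against 50.7% of all genes, and the median was 0.11, against 0.00 over all genes. The SD of the library medians was also 0.11. Without control 3, the library low for 73 of 75 families, the median was 0.04 and 56 of 75 members were above 0. With any other library left out the median lay between 0.09 and 0.17. In 6 members (Rpl10a, Rpl36, Rpl4, Rpl22, Rps26 and Rps6) all cKO libraries were above all controls in CPM, 8% of the set against 8.76% of all genes, and in 0 were they below, against 9.37%.

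By role, the values were mostly small and positive. The stalk proteins came first: Rplp0 gave 0.17 (SE 0.11) and Rplp1 gave 0.26 (SE 0.13). Among proteins that bind Mdm2 when free of the ribosome, Rpl11 gave 0.16 (SE 0.11), Rpl23 gave 0.08 (SE 0.10) and Rpl5 gave 0.30 (SE 0.18), or 0.11 (SE 0.11) as a family. Rpl3, Rpl12 and Rpl10a, whose nematode counterparts are known to be spliced unproductively, gave 0.19 (SE 0.13), 0.35 (SE 0.19) and 0.26 (SE 0.10), and the fourth such gene, Rpl7a, gave 0.15 (SE 0.10). As a family Rpl12 gave 0.21 (SE 0.12). The tunnel protein Rpl4 gave 0.20 (SE 0.10) and Rps14, near the decoding site, gave 0.05 (SE 0.11). None of these 11 members passed the threshold.

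The extremes were again mostly rows with a close copy. Rps2 had the lowest value, -0.84 with an SE of 1.69, followed by Rpl34 at -0.23 (SE 0.23) and Rps28 at -0.0025 (SE 0.11). As a family Rps2 turned to 0.36 (SE 0.15, adjusted p 0.406), with no overlap between the groups. Rps27 had the highest value, 0.95 (SE 0.62), and Rps13 and Rps18 gave 0.43 (SE 0.21) and 0.41 (SE 0.24). As families these 3 gave -0.01, 0.07 and 0.01. Without cKO 2, where the Rps27 row had 141 TPM, Rps27 gave -0.12. Over all members the range was -0.84 to 0.95 for rows and -0.12 to 0.36 for families.

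**Figure D4:**
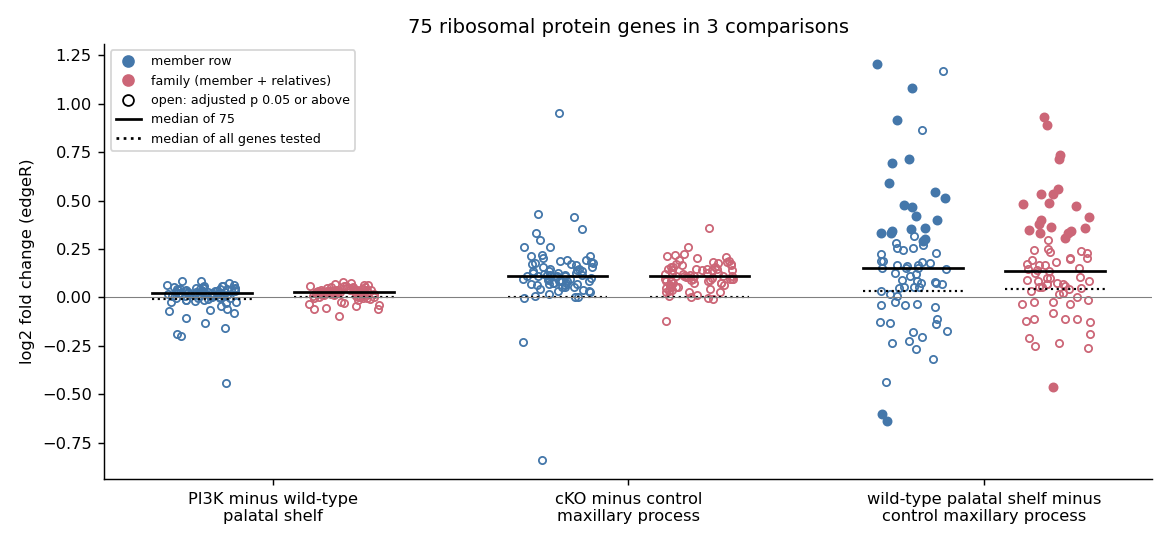
Log2 fold changes of the 75 members as rows (blue) and as families (red) in the 3 comparisons, with filled points for an adjusted p under 0.05. Solid lines are medians of the 75 and dotted lines medians of all genes tested. The 2 genotype comparisons hold 0 filled points, and the families are more tightly grouped than the rows.

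The difference between the cKO effect and the PI3K effect, which are effects of different mutations in different tissues, was tested on all 12 libraries. It passed in 0 of 75 members, against 7 of 16877 genes (0.0415%), and 1 member, Rpl10a, had an unadjusted p under 0.05 (difference 0.34, adjusted p 0.535). DESeq2 called 0 members. The difference lay above 0 in 63 of 75 members, with a median of 0.11 against 0.01 over all genes. For no single member was a difference between the effects shown.

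The wild-type palatal shelf was also set against the control maxillary process. Tissue, stage, the floxed allele, the deposited table and the sequencing lane differ together here and cannot be told apart. Of 75 members, 19 (25.3%) were higher in the palatal shelf at an FDR of 0.05 and 2 (2.67%) were lower, against 27.1% and 23.4% of all 15752 genes. The share called higher was thus near that of all genes. Groups were apart in 29 members in the higher direction and 2 in the lower, against 33.2% and 28.9% of genes. The median log2 fold change was 0.15, against 0.03 over all genes, and 56 members were above 0, against 52% of genes.

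Rpl30, a large subunit protein, had the highest log2 fold change, 1.21 (SE 0.14, adjusted p 0.00054). Its row had 521, 520 and 493 TPM in the palatal shelf and 153, 124 and 108 TPM in the maxillary process, with no overlap. The row held 31.7% and 9.71% of its family in the 2 groups, and its relative Gm12191 was not higher in the palatal shelf (1103, 1016 and 1111 against 1196, 1214 and 1154 TPM). As a family the rise was 0.38 (SE 0.09, adjusted p 0.0101).

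Rpl39 rose by 0.92 (SE 0.11, adjusted p 0.000622) on the log2 scale, from 360, 334 and 337 TPM in the maxillary process to 743, 659 and 634 TPM in the palatal shelf. The family gave 0.93, since nearly all of its TPM lies in the row. Rps29, a zinc-binding protein of the small subunit head, rose by 0.71 (SE 0.13, adjusted p 0.00344), from 2183, 1894 and 1833 to 3184, 3294 and 2959 TPM. Rps28, at the mRNA exit of the small subunit, rose by 0.59 as a row and 0.72 as a family. All 4 of these genes had no overlap between the groups as rows and as families.

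Other members among the 8 highest that were called were Rpl28 (0.69, SE 0.12), Rpl37a (0.54, SE 0.10) and Rpl23a (0.52, SE 0.10), all of the large subunit. Rps18 was among them with 1.08 (SE 0.11, adjusted p 0.000376), but as a family it gave 0.05 (SE 0.11, adjusted p 0.693). The Rpl28 row held 41.1% of its family in wild-type palatal shelf and 31.7% in control maxillary process. Its means there were 1151 and 694 TPM, and those of the Rpl28 family 2798 and 2192 TPM, a smaller relative difference. Rps27 had 1.17 with an SE of 0.51 as a row and did not pass (adjusted p 0.0912), whereas its family rose by 0.89 (SE 0.11, adjusted p 0.000704). The Rps27 family had 4084, 3805 and 3504 TPM in the palatal shelf and 2163, 2244 and 2195 TPM in the maxillary process. The Rps29 family rose by 0.74 (SE 0.12, adjusted p 0.00251), so that Rpl39, Rps27 and Rps29 were the 3 families with the highest fitted log2 fold changes.

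Among the stalk proteins, Rplp1 rose by 0.47 (SE 0.14, adjusted p 0.0294), Rplp2 had 0.32 (SE 0.12, adjusted p 0.0528) and Rplp0 had -0.02 (SE 0.12). Among members mutated in Diamond-Blackfan anaemia, Rps19 (0.48), Rps10 (0.35) and Rps7 (0.30) passed as rows, and Rps7 did not as a family (0.23, adjusted p 0.0627). Rps24, Rps26, Rpl35a, Rpl26 and Rpl15 did not pass, with values from 0.06 to 0.23. Rpl5, Rpl11 and Rpl27, also mutated there, gave -0.44, -0.03 and -0.60 as rows and 0.07, -0.01 and -0.12 as families. Of these only the Rpl27 row passed. Rps19 had 1549, 1561 and 1556 TPM against 947, 926 and 844 TPM. Rpl24, which is mutated in the belly spot and tail mouse, rose by 0.29 (SE 0.10, adjusted p 0.0395), and Rpl38 and Rps20 had 0.28 and 0.26 without passing. Rps27a, made as a fusion with ubiquitin, rose by 0.36, and Rpl17 of the exit tunnel by 0.40.

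In 19 of 75 members the value was below 0, and 2 of these passed. Rpl29 (-0.64, SE 0.23, adjusted p 0.0472) and Rpl27 (-0.60, SE 0.21, adjusted p 0.0429) passed as rows, and as families they gave -0.11 and -0.12 and did not pass. Rpl5 had -0.44 (adjusted p 0.0754) as a row and 0.07 as a family. Rpsa, the laminin receptor protein of the small subunit, had -0.26 (adjusted p 0.11) and Rps3 had -0.22 (adjusted p 0.174). The only family called lower was Rps2, at -0.46 (SE 0.15, adjusted p 0.0364), which as a row had 0.87 with an SE of 1.08.

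With families, 20 members were called higher and 1 lower, against 27.6% and 22.7% of genes in that fit. Of the 19 rows called higher, 15 were also called as families, while Rps18, Rpl10a, Rpl27a and Rps7 were not. Rps27, Rps20, Rps13, Rpl31 and Rplp2 were called as families only. The sign differed between row and family in 6 members. Without control 3, 16 rows were called higher and 11 lower, and the median fell to 0.04, below the 0.05 of all genes. Without control 2, 9 rows were called, and without wild-type 2 or wild-type 3, 13.

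**Figure D5:**
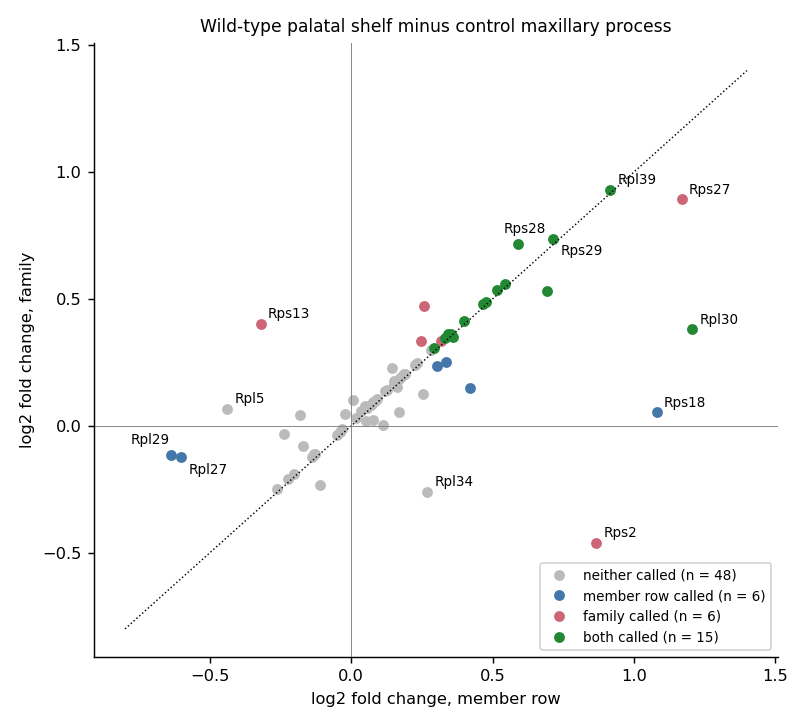
Log2 fold change between wild-type palatal shelf and control maxillary process for each member as a row (horizontal axis) and as a family (vertical axis), with the line of equality dotted. Green points were called both ways, and Rps18, Rps2, Rps13, Rpl30 and Rpl27 lie far from the line.

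The effective length of a gene is its estimated count divided by its TPM, with the library's median over genes subtracted on the log2 scale. It can move when the mix of transcripts moves, but a move alone does not show that the mix changed. Effective length was read because Srsf3 acts on splicing. In the PI3K comparison 0 of 75 members passed an FDR of 0.05 in limma, against 0.00775% of 12907 genes. In the cKO comparison 0 of the 74 members with enough counts passed, against 0.00909% of 11002 genes. In each comparison 1 member had an unadjusted p under 0.05.

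Between the wild-type palatal shelf and the control maxillary process 49 members passed, 46 longer and 3 shorter in the palatal shelf, against 8.67% of 11093 genes. The median shift of members was 0.10 on the log2 scale. Genes outside the set with a similar effective length moved by a median of 0.09 (610 of 681 longer) and all other genes by 0.02. The count of calls changed when 1 library was left out. Without wild-type 1, wild-type 2 or control 2 there were 0, without control 1 there were 2, and without control 3 there were 4. Without wild-type 3 there were 44.

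The largest called shifts were in Rpl30 (-0.62, SE 0.04, adjusted p 0.013), Rplp2 (0.58, SE 0.04, adjusted p 0.013) and Rps15a (0.53, SE 0.05, adjusted p 0.0223). Among the members called, Rps20 (0.38) and Rpl27a (-0.36) followed. Rps27 had -0.45 with an SE of 0.25 and was not called. A level per length and a count can then differ in direction. Rplp2 had 1854, 1925 and 1862 TPM in the palatal shelf against 2106, 1974 and 1909 TPM in the maxillary process, while its count-based log2 fold change was 0.32. Whether the mix of transcripts changed, and which of them, cannot be read from gene totals and was not tested.

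Of 5 core subunits outside the symbol rule, 3 lay above 0 and 2 below in the palatal shelf against the maxillary process, and 1 was called. It was Rps3a1, which rose by 0.42 (SE 0.13, adjusted p 0.0314). In the PI3K and cKO comparisons it gave -0.04 (SE 0.12) and 0.04 (SE 0.10) and was not called.

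Of 9 paralogs outside the rule, 7 were tested in the palatal shelf and 6 in the maxillary process, and 0 were called by genotype. Rpl22l1, a paralog that can replace Rpl22 and also binds RNA outside the ribosome, had 410, 281 and 347 TPM in wild-type palatal shelf and 230, 222 and 219 TPM in control maxillary process. Its count rose by 0.56 (SE 0.15, adjusted p 0.0159) in the palatal shelf, while Rpl22 had 0.13 (SE 0.09). The log2 ratio of Rpl22l1 to Rpl22 in TPM was -1.77 ± 0.283 and -1.90 ± 0.136 in wild-type and PI3K palatal shelf (SD, n = 3 each). In control and cKO maxillary process it was -2.36 ± 0.0594 and -2.39 ± 0.0163 (SD, n = 3 each). In estimated counts the mean ratios in the same order were -2.05, -2.21, -2.47 and -2.51, with the tissues closer together.

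Rpl39l, the paralog of Rpl39, was at most 5.72 TPM in any library and rose by 3.30 (SE 0.90, adjusted p 0.0183) in the palatal shelf. Rpl7l1, a paralog of Rpl7, fell by 0.28 (SE 0.09, adjusted p 0.0311). Rpl10l was listed at 0 in all 12 libraries, and Rpl3l did not exceed 0.508 TPM. Rps27rt, which shares the coding sequence of Rps27, rose by 0.87 (SE 0.11, adjusted p 0.000721) in the palatal shelf.

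Many genes that build ribosomes fell in the palatal shelf against the maxillary process, and 0 were called by genotype. Of 44 genes for ribosome biogenesis (RNA polymerase I, nucleolar and processing factors), 0 were called in the PI3K comparison (median -0.11, 35 below 0). In the cKO comparison 0 were called (median 0.18, 43 of 44 above 0, 6 at an unadjusted p under 0.05). In the palatal shelf against the maxillary process 26 of 44 fell and 1 rose, with a median of -0.37, against 23.4% and 27.1% of all genes. Dkc1, which guides rRNA modification, fell by 0.72 on the log2 scale, Nolc1 by 0.66, Npm1, an abundant nucleolar chaperone, by 0.62, and Rrn3 and Tcof1, which act with RNA polymerase I, by 0.59 and 0.54.

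A list of 34 genes held elongation and initiation factors and other genes that are not subunits, such as Larp1, Gas5 and Hnrnpa1. Of these 34, 0 were called by genotype, with medians of 0.02 and 0.14. Between the palatal shelf and the maxillary process 17 fell and 2 rose, against the same background, with a median of -0.34, including the initiation factor subunits Eif2s1 (-0.64) and Eif3b (-0.57). The 78 mitochondrial ribosomal proteins had medians of -0.08, 0.03 and -0.28 in the 3 comparisons, with 0, 0 and 32 called (2 higher, 30 lower). Medians of the 75 members in the same order were 0.02, 0.11 and 0.15. The first 2 comparisons share no libraries, and the third shares its wild-type libraries with the first and its controls with the second.

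Among 15 genes known to rise when p53 is active, 0 were called by genotype. Cdkn1a, a cell cycle inhibitor induced by p53, had 1.103, 2.08 and 3.98 TPM in the controls and 3.59, 2.57 and 2.81 TPM in cKO, and the groups overlapped. In the palatal shelf it had 36.4, 9.09 and 20.6 TPM in wild-type and 38.9, 29.1 and 10.6 TPM in PI3K, with overlap again. Against the maxillary process 6 of the 15 were called higher and 3 lower, against 27.1% and 23.4% of all genes.

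Markers of other cells moved in the cKO comparison beside the shift of the members. All 10 endothelial markers were above 0 (median 0.79, all 10 at an unadjusted p under 0.05, 0 called), and summed to 255 to 266 TPM in the controls and 319 to 598 TPM in cKO. Neuron and glia markers were below 0 in 8 of 8 tested (median -0.89). Macrophage markers were above 0 in 10 of 10, red blood cell markers in 10 of 10 (median 0.47), and ectoderm markers in 9 of 9 tested. Facial mesenchyme markers had a median of -0.38. In the PI3K comparison skeletal muscle markers were above 0 in 10 of 10 (median 2.45, 0 called), neuron and glia markers in 9 of 11 (median 0.60, 0 called), and red blood cell markers in 0 of 10 (median -0.62, 0 called). The part of cell composition in the values of the members was not tested.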

How the data were processed

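Estimated counts and TPM per gene were deposited by the authors as 1 pair of tables for each tissue. The submitters' processing notes name STAR 2.7.0, Salmon 1.1.0, DESeq2 1.28.1 and mm10, without roles, and the transcript set that was quantified is not given in the sources used here. Counts were rounded, low genes were removed with filterByExpr, and each comparison was fitted on its own 6 libraries (TMM scaling, edgeR 4.0.16 quasi-likelihood, Benjamini-Hochberg FDR 0.05, R 4.3.3). DESeq2 1.42.0 and limma 3.58.1 on log2(TPM + 1) were alternatives. Effective lengths were tested in limma for genes with at least 50 counts in all 6 libraries. Scripts were tested on simulated data. Symbols came from GENCODE M21 (53355 of 53392 rows matched).

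The members, gene lists and naming rule were chosen with earlier results of these data known. Named members were the extremes and calls of each comparison, members listed by role, and the highest and lowest levels. Replicate numbers did not pair the libraries, so no block was used. P-values set a difference between groups against the spread between libraries, which may in part be technical. Intervals cover that spread only. Some genes are not reported here.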

Additional observations from a re-analysis of the deposited data

How the results depend on the processing

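In both genotype comparisons 0 members were called under every alternative run. In wild-type palatal shelf against control maxillary process, 21 members were called, 32 and 33 with limma on log2(TPM + 1) and log2(TPM + 0.1), where the median of all genes moved from 0.03 to 0.16 and 0.19, and 9 to 27 with 1 library left out (9 without control 2, 13 without wild-type 2 or 3). Changed effective lengths numbered 49 members, 74 without centring, 0 with a replicate block and 0 to 44 with 1 library left out.

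These values changed sign. PI3K against wild-type: Rps12 (-0.19) became 0.0056 with named pseudogenes added and 0.0146 as a family, and Rps27 (-0.44) ran from -0.9873 to 0.1578 with 1 library left out. In cKO against control, Rps2 (-0.84) became 0.3618 and 0.3563 by the same additions. Rps27 (0.95) became -0.0085 as a family and ran from -0.1168 to 1.3712 with 1 library left out. Rps28 (-0.0025) became 0.0026 with DESeq2-type size factors, 0.0042 with a CPM filter, 0.0028 in DESeq2, 0.0040 with the replicate block, 0.0037 with named pseudogenes and 0.0259 as a family, and ran from -0.0788 to 0.1028 with 1 library left out. In the third comparison Rpl27 (-0.60) became 0.1593 with named pseudogenes and Rpl5 (-0.44) became 0.0684 as a family. The causes were not tested. Adding copies changes which rows are summed.

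With the replicate block, 15 members were called in the third comparison (14 higher, 1 lower), 0 in the others, and medians were 0.0191, 0.1145 and 0.1538. Genes called in the cKO comparison numbered 12, 40 with the block, 143 without a filter and 356 in DESeq2. Same-numbered libraries correlated from -0.225 to 0.578, and in no group did every library correlate best with its own number. Among named members, 355 other values kept direction and side of the threshold, 18 lost the call and 5 gained it.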
